A study of Mus musculus with 8 samples.

Results

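Dentate granule cell markers were measured in the hippocampus of Ts1Cje mice and of wild-type mice. The markers were 9 genes listed by name for mature granule cells, the principal neurons of the dentate gyrus: Prox1, C1ql2, C1ql3, Dsp, Calb1, Tdo2, Trpc6, Glis3 and Lct. All 9 were among the 20660 genes that could be named on the array by the RefSeq accession of a probe, with 11 of its 55681 non-control probes, and the 8 genes other than Glis3 were tested among 24025 features. The samples were 8 one-colour expression arrays, each with hippocampal RNA under a separate replicate label: 4 Ts1Cje and 4 wild-type, all taken at 3 months of age and of the strain C57BL6/J in the labels. Ts1Cje mice model Down syndrome: the distal part of chromosome 16 is present in an additional copy, carried on a translocation that lacks the distal end of chromosome 12, and 1 copy of Sod1 is disrupted. The controls were disomic littermates, and the series' description speaks of 4 pairs. None of the 9 marker genes lies on chromosome 12 or 16. They are on chromosomes 1 (Prox1, C1ql2 and Lct), 2 (C1ql3), 3 (Tdo2), 4 (Calb1), 9 (Trpc6), 13 (Dsp) and 19 (Glis3).

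Granule cells receive the main cortical input of the hippocampus and send their axons, the mossy fibres, to CA3 pyramidal cells and hilar mossy cells. New granule cells are added in adult life, and they take on the markers of mature cells step by step. The homeobox factor Prox1 sets and keeps granule cell identity, the calcium buffer calbindin (Calb1) appears on maturation, and the secreted proteins C1ql2 and C1ql3 act at mossy fibre synapses. Several of these genes are also used elsewhere: Calb1 in CA1 pyramidal cells and interneurons, Prox1 in some interneurons and C1ql3 in neocortex. In RNA of whole hippocampus, fewer cells of a type and less RNA per cell cannot be told apart.

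Values are log2 processed signals minus each array's own 75th percentile, so that 0 is the brightness of a bright probe and 1 unit is a doubling. Differences are Ts1Cje minus wild-type. A gene counted as called when its limma p, adjusted by Benjamini-Hochberg across the 24025 features, was under 0.05; limma is a linear model that borrows its estimate of spread across genes. Each array had 59.9% to 63.1% of its probes well above background, and pairs of arrays correlated at 0.992 to 0.996 (Pearson, across genes, which are not replicates). The triplicated gene Dyrk1a, a protein kinase gene of chromosome 16, was 1.56-fold higher in Ts1Cje, with all 4 Ts1Cje arrays above all wild-type arrays (limma adjusted p = 0.0078). Nothing in the labels says how the mice were chosen, and p-values set a difference against the spread between these labelled replicates.

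The upstream sequences of C1ql2, C1ql3 and Lct are shown, a choice made after the values were seen: C1ql2 and Lct had the largest differences among the markers, and C1ql3 is the paralog of C1ql2 that is made in the same cells. Each is the 250 bases before the annotated start of transcription, on the gene's own strand, from RefSeq on GRCm38.p6: chr1:120340332-120340581 (plus strand) for C1ql2, chr2:13010865-13011114 (minus strand) for C1ql3 and chr1:128328319-128328568 (minus strand) for Lct. Capitals mark E-boxes, CANNTG, the recognition core of basic helix-loop-helix factors such as NeuroD; the core reads alike on both strands.
C1ql2: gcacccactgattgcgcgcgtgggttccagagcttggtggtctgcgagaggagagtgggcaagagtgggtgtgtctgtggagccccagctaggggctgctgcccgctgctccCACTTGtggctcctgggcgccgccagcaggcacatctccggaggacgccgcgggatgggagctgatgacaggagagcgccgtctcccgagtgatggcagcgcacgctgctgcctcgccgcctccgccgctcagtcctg
C1ql3: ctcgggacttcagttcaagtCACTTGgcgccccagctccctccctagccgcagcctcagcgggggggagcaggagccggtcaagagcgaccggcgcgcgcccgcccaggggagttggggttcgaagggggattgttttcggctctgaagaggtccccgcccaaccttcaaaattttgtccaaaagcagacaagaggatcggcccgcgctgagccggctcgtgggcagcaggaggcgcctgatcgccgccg
Lct: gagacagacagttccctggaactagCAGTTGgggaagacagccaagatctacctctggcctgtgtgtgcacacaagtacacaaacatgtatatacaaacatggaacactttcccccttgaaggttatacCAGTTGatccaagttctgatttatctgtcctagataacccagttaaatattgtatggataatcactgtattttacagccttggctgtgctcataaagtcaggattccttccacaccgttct
The paralogs C1ql2 and C1ql3 each held 1 E-box, and both matches read CACTTG. Lct held 2. At least 1 E-box was present in 66.2% of all 32851 upstream entries of the same length, so that a match is common. C1ql2 and C1ql3 were rich in G and C (68.8% and 66.4%, against a median of 52.4% over all entries), with 20 and 23 CpG dinucleotides, whereas Lct had 42.8% and 1 CpG. The motif TGACG, searched on both strands and present in 17.8% of entries, was in none of the 3, and neither was TATAAA, searched on both strands and present in 12.4%. Of the 9 markers, 8 had an upstream entry. These matches describe letters and are not measurements of binding.

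None of the 8 tested markers was called in either direction (limma, Benjamini-Hochberg), where 0.196% of all features were. An unadjusted p under 0.05 was reached by 2 of the 8, C1ql2 and Lct, where 8.73% of all features reached it. Both stood lower in Ts1Cje, as did 4.57% of all features at that threshold. The groups did not overlap for 1 of the 8, C1ql2, beside 6.12% of all features in either direction and 3.7% with Ts1Cje lower. Of the 8 markers, 6 had a difference below 0, and the median was -0.07, against -0.0072 over all features, of which 52.7% were below 0. With normexp background correction or quantile normalization, 5 of the 8 were below 0.

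**Figure D1:**
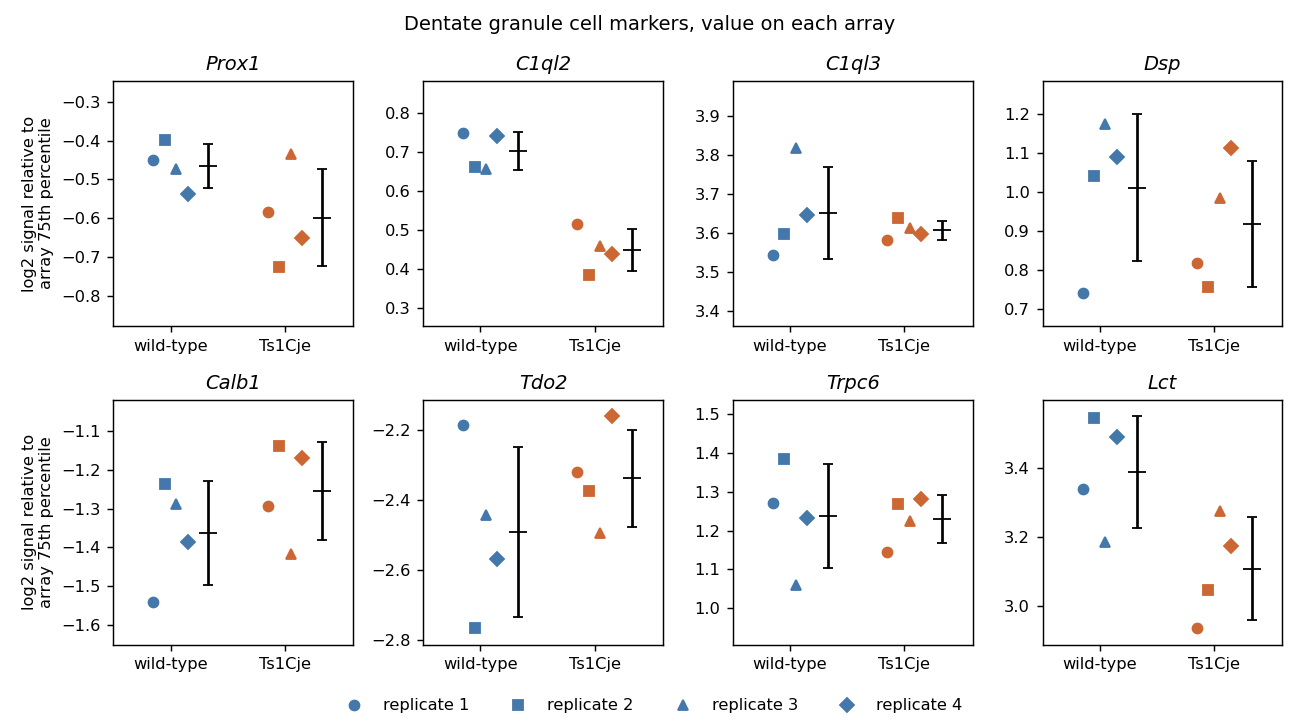
Signal of the 8 tested dentate granule cell markers on each array, as log2 relative to the array's 75th percentile (vertical axis, whose range differs between panels), for wild-type and Ts1Cje; each symbol is 1 array, and the bar is the mean with 1 SD of 4 arrays. The 4 Ts1Cje arrays of C1ql2 lie at 0.38 to 0.52, below the wild-type arrays at 0.66 to 0.75, and the groups of the other 7 genes overlap.

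C1ql2 encodes a secreted C1q-like protein that granule cells release at mossy fibre synapses, where it gathers kainate-type glutamate receptors. Its probe read 0.75, 0.66, 0.66 and 0.74 on wild-type replicates 1 to 4 and 0.52, 0.38, 0.46 and 0.44 on Ts1Cje replicates 1 to 4. Every Ts1Cje array lay below every wild-type array. As processed intensities these are 902 to 1007 in wild-type and 759 to 837 in Ts1Cje, well above background on all 8. The mean was 0.70 ± 0.05 in wild-type and 0.45 ± 0.05 in Ts1Cje (SD, n = 4 each). The difference was -0.25 (SE 0.05, 95% interval -0.37 to -0.14), or 0.84-fold, with a limma adjusted p of 0.15, so that it was larger than the spread between replicates and did not pass over all features. A smaller p was found for 0.558% of features. The residual SD of C1ql2 was below that of 90.9% of features. The rows of the slide gave the same size, -0.26 for replicates 1 and 2 and -0.25 for replicates 3 and 4. Over 18 alternative settings the difference lay between -0.30, with the array median as centre, and -0.23. With that centre the median over all features was -0.058, against -0.0072 in the main setting. The adjusted p lay between 0.057, with array weights, and 0.43, without Ts1Cje replicate 4. Among the 18 settings, other filters, probe rules, priors and blocks could not move the difference, since the probe and the balance of the groups stayed the same.

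C1ql3, the close relative of C1ql2 that also acts at mossy fibre synapses and is made in neocortex as well, read 3.54, 3.60, 3.82 and 3.65 on the wild-type arrays and 3.58, 3.64, 3.61 and 3.60 on the Ts1Cje arrays. The groups overlapped, and wild-type replicate 3 was the highest array. The difference was -0.04 (SE 0.06, 95% interval -0.19 to 0.10; limma adjusted p = 0.85), an interval that allows 0.88-fold to 1.08-fold. It was 0.01 without wild-type replicate 3 and 0.0039 with normexp. The paralogs were then set against each other on each array, a comparison chosen after their values were seen. The log2 ratio of C1ql2 to C1ql3 was 0.21 lower on average in Ts1Cje (-3.16 ± 0.08 against -2.95 ± 0.15, SD, n = 4 each). Wild-type replicate 3 lay at -3.16, among the Ts1Cje arrays at -3.26 to -3.07, and the other wild-type arrays lay above them. The difference between the paralogs did not pass (exact permutation of all 70 assignments, two-sided p = 0.11, where the smallest possible is 0.029).

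Lct encodes lactase, known from the intestine and, in mouse hippocampus, a marker of granule cells. Its probe read 3.34, 3.54, 3.18 and 3.49 on the wild-type arrays and 2.94, 3.05, 3.28 and 3.17 on the Ts1Cje arrays. Wild-type replicate 3 lay below Ts1Cje replicate 3 and just above Ts1Cje replicate 4, and the other wild-type arrays lay above all Ts1Cje arrays. The difference was -0.28 (SE 0.10, 95% interval -0.52 to -0.05), or 0.82-fold (limma adjusted p = 0.50). It was -0.45 in the slide row of replicates 1 and 2 and -0.11 in that of replicates 3 and 4. The estimate stayed between -0.35 and -0.22 over 18 alternative settings, with no adjusted p below 0.27. As for C1ql2, other filters, probe rules, priors and blocks could not move it.

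Prox1, the homeobox factor, read -0.45, -0.40, -0.47 and -0.54 on the wild-type arrays and -0.58, -0.72, -0.43 and -0.65 on the Ts1Cje arrays. All Ts1Cje arrays but replicate 3 lay below all wild-type arrays. The difference was -0.13 (SE 0.07, 95% interval -0.29 to 0.03; limma adjusted p = 0.63), and the slide rows gave -0.23 and -0.04. For this defining marker the interval reaches from 0.82-fold to 1.02-fold.

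Calb1 and Tdo2 had differences above 0. Calb1, the calcium buffer of mature granule cells, read -1.54, -1.24, -1.29 and -1.38 on the wild-type arrays and -1.29, -1.14, -1.42 and -1.17 on the Ts1Cje arrays. Ts1Cje replicates 2 and 4 lay above all wild-type arrays, wild-type replicate 1 lay below all Ts1Cje arrays, and the others overlapped. The difference was 0.11 (SE 0.09, 95% interval -0.09 to 0.31; limma adjusted p = 0.73), and 0.049 without wild-type replicate 1. Tdo2 encodes tryptophan 2,3-dioxygenase, which opens the kynurenine pathway of tryptophan breakdown. It read -2.18, -2.77, -2.44 and -2.57 on the wild-type arrays and -2.32, -2.38, -2.49 and -2.16 on the Ts1Cje arrays. Wild-type replicate 1 was among the highest arrays and wild-type replicate 2 was the lowest, so that the wild-type arrays spanned all but 1 of the Ts1Cje values. The difference was 0.15 (SE 0.13, 95% interval -0.14 to 0.44; limma adjusted p = 0.73), and it ranged from 0.062, without wild-type replicate 2, to 0.26, without wild-type replicate 1. Its SD within groups was exceeded by that of 25.5% of features, against 90.9% for C1ql2.

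Dsp and Trpc6 gave no difference beyond the spread. Dsp encodes desmoplakin, which ties intermediate filaments to desmosomes in epithelia and marks granule cells in the hippocampus. It was read by a probe with 10 spots on each array, 9 of them used, since the same spot carried an outlier flag on all 8 arrays. Its means were 0.74, 1.04, 1.17 and 1.09 in wild-type and 0.82, 0.76, 0.98 and 1.11 in Ts1Cje. The SD over the spots of an array was 0.05 to 0.11, and the SD between arrays was 0.19 in wild-type and 0.16 in Ts1Cje, so that the arrays differed by more than their spots did. The difference was -0.09 (SE 0.11, 95% interval -0.36 to 0.17; limma adjusted p = 0.82), and it ranged from -0.18, without wild-type replicate 1, to -0.040, without wild-type replicate 3. A further probe of Dsp was well above background on 1 array of each group and was not tested. Trpc6, a cation channel subunit opened by diacylglycerol, read 1.27, 1.38, 1.06 and 1.23 in wild-type and 1.15, 1.27, 1.23 and 1.28 in Ts1Cje. The Ts1Cje arrays lay inside the wild-type range. The difference was -0.0065 (SE 0.07, 95% interval -0.18 to 0.16; limma adjusted p = 0.98), and its sign turned with quantile normalization (0.0056).

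Glis3, a zinc finger factor of the Gli-similar family, could not be compared. Of its 2 probes, the brighter was well above background on 3 arrays of each group, at processed intensities of 14.3 to 37.1 over all 8 arrays, and the other on 1 wild-type array and on 0 Ts1Cje arrays. No fold is given for either. Dsp and Glis3 were the only markers with more than 1 probe, so that for the other 7 no second probe checks the value.

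**Figure D2:**
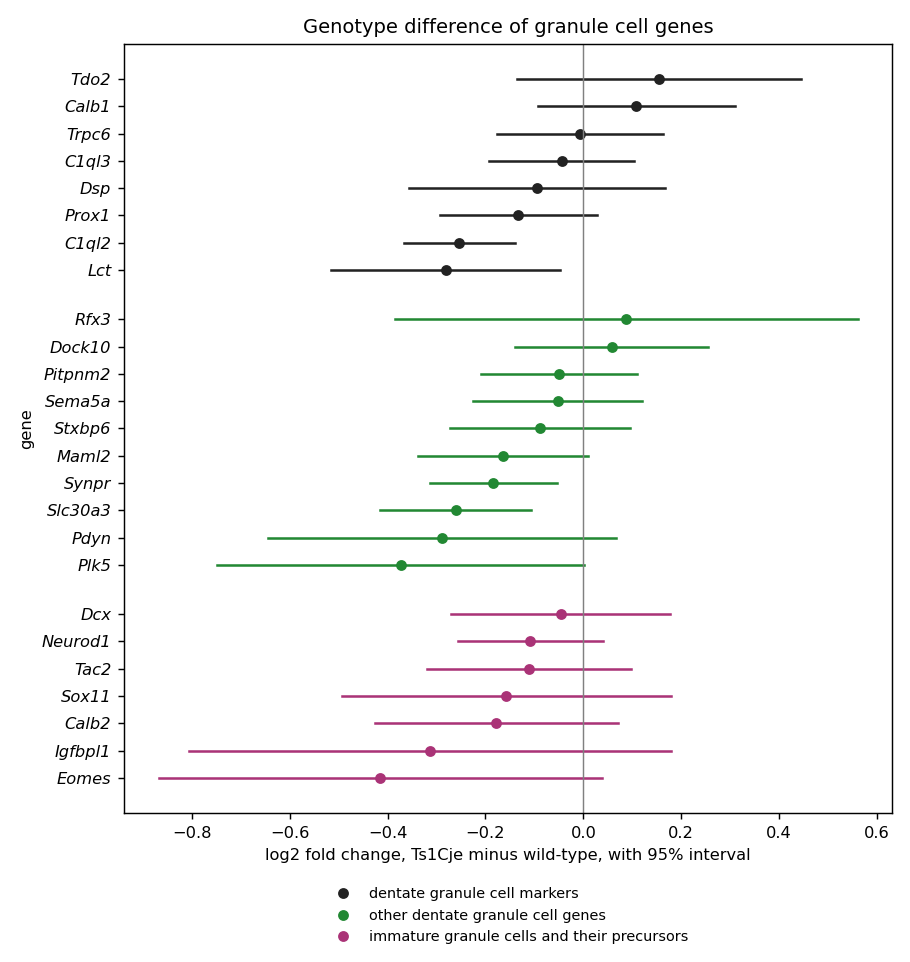
Difference between Ts1Cje and wild-type (log2 fold change, points) with its 95% interval from limma (lines) for the 8 tested markers, 10 of the 11 other dentate granule cell genes tested and 7 genes of immature granule cells and their precursors. The intervals of C1ql2 (-0.37 to -0.14) and Lct (-0.52 to -0.05) lie below 0 among the markers, and no gene shown was called over all features.

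Other genes of granule cells, listed by their known function but with earlier results of these data known, were read beside the markers. Of 12 listed genes of mature granule cells and mossy fibres, 11 were tested and 0 were called. Below 0 were 9 of the 11, and the median was -0.16, or -0.08 with normexp. An unadjusted p under 0.05 with Ts1Cje lower was reached by 3 of the 11, beside 4.57% of all features. Pdyn (-0.29), named here for how it was kept, passed the filter through the wild-type arrays alone, which favours a value below 0. The zinc transporter gene Slc30a3, which loads zinc into mossy fibre vesicles, read 0.60, 0.57, 0.52 and 0.38 in wild-type and 0.14, 0.30, 0.32 and 0.26 in Ts1Cje. Its groups did not overlap, and the difference was -0.26 (SE 0.07; limma adjusted p = 0.33). Synpr, a vesicle protein of mossy fibre terminals, read 4.25, 4.25, 4.36 and 4.27 in wild-type and 4.06, 4.02, 4.20 and 4.12 in Ts1Cje. Its groups did not overlap either, at a difference of -0.18 (SE 0.06; limma adjusted p = 0.42), and its other probe gave -0.16 with groups that overlapped.

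**Figure D3:**
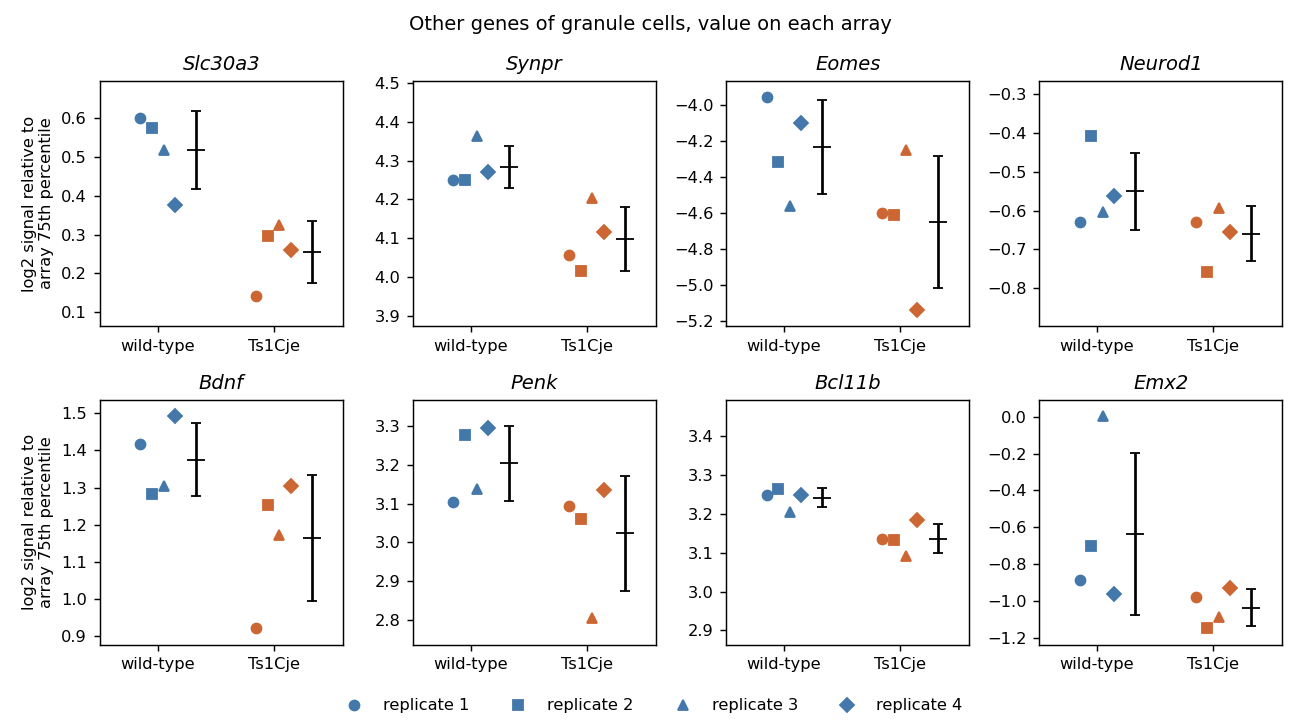
Signal on each array, as log2 relative to the array's 75th percentile (vertical axis, whose range differs between panels), for the 2 genes with the smallest p in each of 4 lists of granule cell genes; symbols and bars are as in the plot of the markers by array. The groups of Slc30a3, Synpr and Bcl11b do not overlap, with Ts1Cje lower.

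Immature granule cells and their precursors were represented by 7 tested genes of 8, all 7 below 0, with a median of -0.16, 0 called and 0 with an unadjusted p under 0.05. Eomes, a factor of intermediate progenitors, stood at -0.41 (SE 0.20, limma adjusted p = 0.60) and was well above background on 3 of 4 Ts1Cje arrays. Eomes was thus kept through the wild-type arrays alone, and such a filter favours a value below 0. Neurod1, which drives granule neuron differentiation, stood at -0.11 (SE 0.06, adjusted p = 0.66), while its other probe gave 0.05. Sox11, a factor of immature neurons named after its values were seen, stood at -0.16 (SE 0.15, adjusted p = 0.76) with overlap, and its other probe gave -0.26 with groups that did not overlap (SE 0.08, limma adjusted p = 0.43 over all kept probes). Among 8 genes that respond to granule cell activity, 6 were below 0 and the median was -0.06, with 0 called and 0 at an unadjusted p under 0.05. The neurotrophin gene Bdnf stood at -0.21 (SE 0.09, adjusted p = 0.57) and the enkephalin precursor gene Penk at -0.18 (SE 0.08, adjusted p = 0.60). Of 7 transcription factors of granule cells, 5 were below 0 with a median of -0.10 and 0 called. Bcl11b, a zinc finger factor of granule cell maturation, read 3.21 to 3.26 in wild-type and 3.09 to 3.18 in Ts1Cje without overlap (difference -0.10, SE 0.04; limma adjusted p = 0.55), and its other probe gave -0.17 with overlap. Emx2, a factor of hippocampal patterning, stood at -0.40 (SE 0.20, adjusted p = 0.61), with wild-type replicate 3 at 0.0045 and the other wild-type arrays between -0.96 and -0.70. It ranged from -0.51 to -0.19 with 1 array left out.

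Partners and relatives of the single markers were also read, and 0 of them were called. Among the C1q-like paralogs and the synaptic partners of C1ql2 and C1ql3, 7 of 8 genes were tested, with a median of -0.01 and 0 at an unadjusted p under 0.05. The paralog C1ql1 stood at -0.24 (SE 0.15, limma adjusted p = 0.66), or -0.32 to -0.12 with 1 array left out. The 5 tested TRPC channel subunits other than Trpc6 had a median of 0.0030, with Trpc5 at -0.13 (SE 0.06, adjusted p = 0.60) and Trpc1 at -0.07 (SE 0.06, adjusted p = 0.75). Of the enzymes of tryptophan breakdown, 7 of 11 were tested, with a median of 0.03. Kyat1, which makes kynurenic acid, was higher on every Ts1Cje array (2.95 to 3.05) than on any wild-type array (2.62 to 2.86), at a difference of 0.25 (SE 0.06; limma adjusted p = 0.28), and its other probe gave 0.20, also without overlap. Ido2, which shares the first step of the pathway with Tdo2, stood at 0.21 (SE 0.14, adjusted p = 0.68), or 0.070 to 0.26 with 1 array left out; Ts1Cje replicate 4 lay at -3.31 and the other Ts1Cje arrays at -3.89 to -3.88.

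The calcium buffer genes Calb2 and Pvalb stood at -0.18 (SE 0.11) and -0.03 (SE 0.07), at limma adjusted p of 0.66 and 0.92. Of 7 desmosomal plaque partners of desmoplakin, 5 were tested, with a median of 0.08, Evpl at 0.16 (SE 0.07, adjusted p = 0.57) and Pkp3 at -0.12 (SE 0.06, adjusted p = 0.60). The 5 Gli and Glis factors other than Glis3 had a median of -0.09. Gli2, a mediator of hedgehog signalling, stood at -0.71 (SE 0.27, adjusted p = 0.53) at low signal, or -0.90 to -0.43 with 1 array left out. Wild-type replicate 2 lay at -2.87 for Gli2 and the other wild-type arrays at -4.29 to -3.70. Glis1 stood at -0.09 (SE 0.04, adjusted p = 0.61) with groups that did not overlap. Mcm6, a replication licensing gene that is the next annotated gene to Lct on chromosome 1, read 2.65 to 2.72 in wild-type and 2.45 to 2.61 in Ts1Cje without overlap (difference -0.14, SE 0.05; limma adjusted p = 0.53). The lactase-like gene Lctl stood at 0.32 (SE 0.14, adjusted p = 0.57).

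Marker lists of the other cells that hippocampal tissue or its edges can hold were read on the same arrays, and 0 of their genes were called. In the tissue, markers of CA1 (6 of 6), CA2 (5 of 5) and CA3 (5 of 6) were among the tested features, as were those of hilar mossy cells (3 of 4), interneurons (7 of 7) and glia. The medians were -0.13 for hilar mossy cells (3 of 3 below 0), -0.07 for CA1, 0.07 for CA2, -0.11 for CA3 with 5 of 5 below 0, and 0.09 for interneurons. Drd2 of the mossy cell list was dim and kept through the wild-type arrays alone. Some genes stand in several lists, whose counts are then not separate. Calb2 is in those of immature granule cells, calcium buffers and mossy cells, and Grik4 in those of CA3 and C1q-like partners. Neurod1, Rfx3, Pvalb and Drd1 are also shared. Of the 6 CA1 markers 5 were below 0. The groups did not overlap for 3, named after their values were seen, beside 6.12% of all features in either direction. Among these Wfs1, the 1 marker above 0, stood at 0.30 (SE 0.07, limma adjusted p = 0.22), Fibcd1 at -0.19 (SE 0.05, adjusted p = 0.32) and Pou3f1 at -0.15 (SE 0.05, adjusted p = 0.51). Among neighbouring tissue, medians were -0.07 for neocortex, 0.10 for striatum, 0.08 for thalamus and habenula, -0.02 for choroid plexus and -0.37 for ependyma. All 4 ependymal markers were below 0, 2 of them with an unadjusted p under 0.05, which 4.57% of all features reached with Ts1Cje lower. Tmem212, named after its values were seen, stood at -0.73 with groups that did not overlap (SE 0.15, limma adjusted p = 0.18). Glia and vessels gave -0.07 for astrocytes (5 of 5 below 0, with Gja1, also named after its values were seen, at -0.31 and groups that did not overlap, limma adjusted p = 0.49), 0.01 for oligodendrocytes, -0.08 for microglia and 0.02 for endothelium, and blood gave 0.34, with haemoglobin genes that differed widely between arrays of 1 genotype (list mean -2.77 to -1.12 in wild-type and -2.81 to -1.08 in Ts1Cje). Hbb-bs of the blood list was kept through the Ts1Cje arrays alone, which favours a value above 0. The mean over the 8 markers was 0.68 to 0.73 on the wild-type arrays and 0.60 to 0.70 on the Ts1Cje arrays. The mean over the 11 other granule cell genes was 1.57 to 1.69 and 1.44 to 1.57, that over the 5 CA3 genes was 1.15 to 1.30 and 0.97 to 1.19, that over the 5 astrocyte genes was 3.86 to 3.97 and 3.65 to 3.90, and that over the 4 ependymal genes was 0.22 to 0.61 and -0.14 to 0.23. Among lists with a median above 0, the mean over the 7 interneuron genes was 3.71 to 3.89 and 3.82 to 3.92. For the 5 CA2 genes it was 0.72 to 0.79 and 0.72 to 0.97. The part of these cells in the values of the granule cell markers was not tested.

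**Figure D4:**
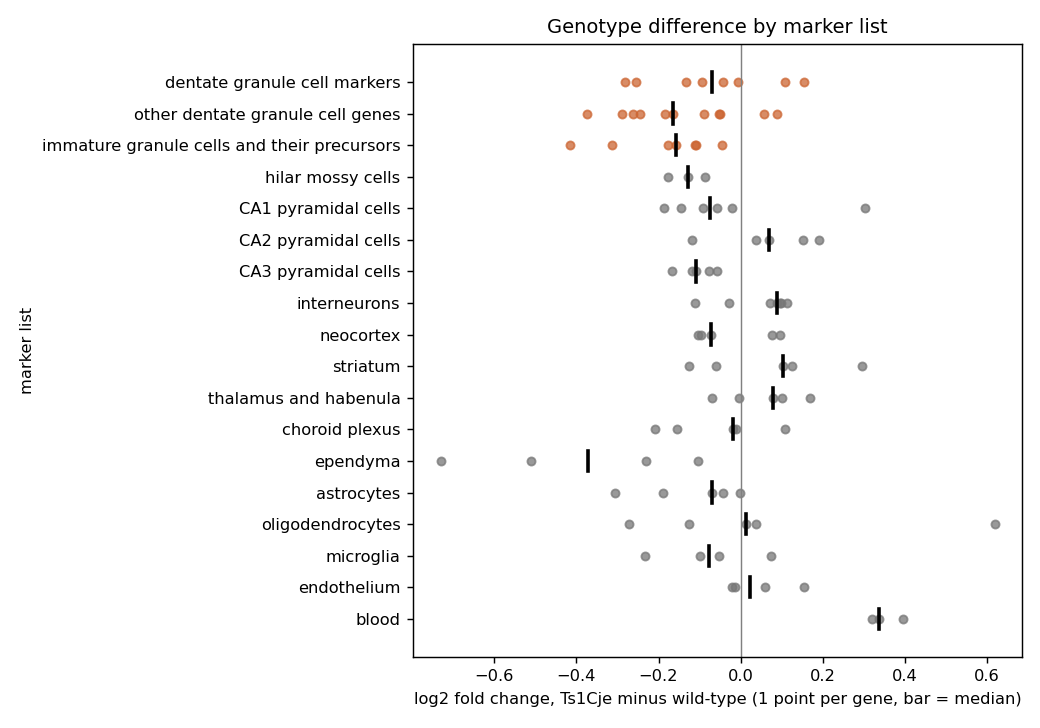
Difference between Ts1Cje and wild-type (log2 fold change, 1 point per gene) for 3 lists of granule cell genes (orange) and 15 lists of other cells or regions (grey), with the median of each list as a bar. The medians of the granule cell lists are -0.07, -0.16 and -0.16, and those of the other lists run from -0.37 (ependyma) to 0.34 (blood, 3 genes). Calb2 is plotted both with immature granule cells and with hilar mossy cells.

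Within the groups the markers varied in different directions. Each gene was centred on its group mean, and Pearson's r over the 8 arrays was computed for the 28 pairs of tested markers, as a description. The highest was 0.74, between Trpc6 and Lct, and the lowest was -0.74, between C1ql2 and Calb1. The other pairs among Prox1, C1ql2, C1ql3 and Calb1 ran from 0.41 (C1ql3 with Calb1) and 0.23 (Prox1 with C1ql2) through -0.18 (Prox1 with C1ql3) to -0.53, both for Prox1 with Calb1 and for C1ql2 with C1ql3. The 8 points share the slide and the scaling, and 8 arrays fix such values poorly. Among 15078 other named genes, those most like the mean of the markers by the same measure were Rasgef1a (r = 0.98), Sptb (0.94), Syce1l (0.94), Nme9 (0.94) and Snx18 (0.93). As the highest of so many genes on 8 arrays, these values are high by selection, and they were not tested against chance. None of the 5 was called (limma adjusted p of 0.64 to 0.86).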

How the data were processed

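Per the labels' protocols, 0.1 µg of total RNA was labelled with Cy3 for each array. Per the file headers, Agilent Feature Extraction 10.10.1.1 read the images, the design is of build mm9, and the 8 arrays shared 1 slide and 1 scan. One slide row held replicates 1 and 2, the other replicates 3 and 4; each slide column held 1 genotype, and the effects of both cannot be told apart. The deposited values are intensities per spot, background-corrected by that software and not normalized between arrays.

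Control and outlier-flagged spots were left out. Log2 signals were averaged per probe and expressed relative to the array's 75th percentile. A probe was kept if it was well above background on the 4 arrays of either genotype (32596 of 55681 probes). RefSeq accessions named 27235 probes (GRCm38.p6 table, used for names, chromosomes and gene order); the place of a probe in its transcript was not determined. The brightest kept probe stands for a gene. The comparison used limma 3.58.1 (R 4.3.3), unblocked, with Benjamini-Hochberg adjustment. No array was dropped or imputed for any marker. The fit was also run on simulated data of independent values, without slide column or pair effects, so that it cannot speak to these. Named genes are the 9 markers, the 2 genes with the smallest p of each list of granule cell or partner genes, the 5 most like the mean of the markers, and others only where the text says so; 2 genes that the rule or the lists would show are not reported here. Markers and lists were chosen with earlier results of these data known. Alternatives were normexp (offset 50, on median signals), other scalings, filters, probe rules, weights, priors and the replicate block, and each array left out. Plots used matplotlib 3.10.9 in Python 3.11.15. The number of arrays limits the precision.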

Additional observations from a re-analysis of the deposited data

Results flagged for a closer look

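The 8 markers and the means of 27 lists, each within a genotype, gave 70 sets of 4 arrays. In 3 of these sets 1 array stood apart (Dixon's criterion at 95%), and chance alone gives about 3.5; none of the 3 was a marker. Wild-type replicate 4 stood at 2.81 in the mean of the C1q-like paralogs and synaptic partners, against 2.72 to 2.73 on the other wild-type arrays. Ts1Cje replicate 1 stood at -1.78 in the mean of the tryptophan and kynurenine enzymes, against -2.06 to -2.05 on the other Ts1Cje arrays. Ts1Cje replicate 1 also stood at -0.36 in the mean of Lctl and Mcm6, against -0.17 to -0.13.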

How the results depend on the processing

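No marker was called by limma in any of the alternatives run, where 2 had an unadjusted p under 0.05 in the main setting. The count of calls over all features, 47, was 25 with the array median as centre, 23 with no filter on dim probes, 84 with array weights and 71 with a trended and robust prior. Quantile normalization gave 47 higher and 13 lower, where the main setting had 42 and 5. Leaving out 1 array gave between 13 (Ts1Cje replicate 4 omitted) and 44 calls. A replicate block left 1 call and gave C1ql2 an adjusted p of 0.23. The numbers are not known to mark littermates, and the deviations of equal-numbered arrays from their group means correlated at 0.24, 0.19, 0.11 and 0.05. Those of arrays with unequal numbers correlated at -0.26 to 0.14. Whether the arrays are paired was not tested. The median over the markers, -0.07, was -0.12 with the array median as centre and -0.031 with array weights, and -0.10 to -0.05 with 1 array left out. With the array median as centre the median over all features moved as well, from -0.0072 to -0.058. C1ql2, Lct, Prox1, Dsp, Calb1 and Tdo2 kept their sign in all 18 alternatives that fitted genes, though with 1 array left out Dsp ranged from -0.18 to -0.040, Calb1 from 0.049 to 0.16 and Tdo2 from 0.062 to 0.26. Other filters, probe rules, priors and blocks had to return the main difference, since the probe and the balance of the groups stayed the same. The fits with 1 array left out share most of their arrays. C1ql3 turned to 0.0039 with normexp, and ranged from -0.080 to 0.012 with 1 array left out, above 0 when wild-type replicate 3 was omitted. Trpc6 turned to 0.0056 with quantile normalization, and ranged from -0.065 to 0.042 with 1 array left out, above 0 in 3 of these fits. The cause of these changes was not tested. Signal over background limits Glis3 and the dimmer probe of Dsp, which gave no difference here.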
